A study of Mus musculus with 9 samples.

Results

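The natriuretic peptide system was followed through 7 genes, chosen by name from the 48820 genes measured: the peptide genes *Nppa*, *Nppb* and *Nppc*, the receptor genes *Npr1*, *Npr2* and *Npr3*, and *Corin*. All 7 had a value in every heart. Transcriptomes were collected from 9 hearts of wild-type, untreated C57BL/6J mice, 3 each from embryonic day 18.5 (E18.5d), postnatal day 1 (P1d) and postnatal day 7 (P7d), to ask how gene expression changes around birth. The labels call the 3 hearts of a stage biological replicates and do not say whether litters were shared or hearts were pooled, and the tissue is given as heart, with no chamber named.

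Natriuretic peptides are hormones and local signals of the heart and vessels. *Nppa* encodes atrial natriuretic peptide (ANP), *Nppb* encodes B-type natriuretic peptide (BNP) and *Nppc* encodes C-type natriuretic peptide (CNP), which is made largely by endothelium and cartilage rather than by muscle. ANP and BNP are made as precursors and cut, ANP by the transmembrane serine protease corin on the cardiomyocyte surface. They act on NPR-A, the product of *Npr1*, and CNP acts on NPR-B, the product of *Npr2*; both receptors are guanylyl cyclases that make cyclic GMP (cGMP). NPR-C, the product of *Npr3*, has no cyclase domain and takes up and clears the peptides. In the foetus *Nppa* is transcribed in the atria and in the trabecular layer of the ventricles, and after birth its ventricular transcription is known to fade, which makes the gene a classical marker of the foetal muscle programme.

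*Nppa* and *Nppb* lie beside each other on chromosome 4, on the plus strand. In GENCODE M21 of GRCm38, *Nppb* (ENSMUSG00000029019.8) spans chr4:147985788-147987205 and *Nppa* (ENSMUSG00000041616.9) spans chr4:148000722-148002079, with 13516 bases between them. The 250 bases before each RefSeq start (GRCm38.p6, plus strand) are shown because these are the 2 most abundant members and lie side by side. Capitals mark matches to GATA, to AAGTG (the core bound by NKX2-5), to GGTGTG (a T-box core), to CATTCC (the M-CAT element of TEAD factors), each searched on both strands, and to TATAAAA on the gene strand.
Nppa: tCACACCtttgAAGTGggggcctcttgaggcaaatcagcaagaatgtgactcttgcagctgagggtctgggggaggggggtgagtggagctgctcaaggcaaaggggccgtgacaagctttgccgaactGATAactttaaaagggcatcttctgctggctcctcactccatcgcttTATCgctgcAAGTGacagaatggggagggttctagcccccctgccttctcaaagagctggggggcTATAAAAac
Nppb: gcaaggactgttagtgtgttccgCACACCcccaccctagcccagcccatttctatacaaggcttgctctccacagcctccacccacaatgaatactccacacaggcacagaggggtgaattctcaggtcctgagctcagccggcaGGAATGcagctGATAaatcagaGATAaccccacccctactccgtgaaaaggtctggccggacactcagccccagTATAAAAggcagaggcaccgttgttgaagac
The first stretch is chr4:148000472-148000721 and the second chr4:147985650-147985899; GENCODE starts *Nppb* 112 bases earlier than RefSeq does. Each promoter held 2 GATA matches, 1 T-box match and 1 TATA match. The *Nppa* promoter held 2 AAGTG matches and the *Nppb* promoter none, while the CATTCC match was in *Nppb* and not in *Nppa*. A CArG box, the site of serum response factor, was matched in neither. These letters are common: of 32851 RefSeq promoters of this length, 53.6% held a GATA match, 40.7% an AAGTG match, 16.3% a GGTGTG match, 12.6% a CATTCC match, 3.02% a TATA match and 1.47% a CArG box. All 7 members had a promoter in the table, and in the other 5 the only match to any of these motifs was 1 GGTGTG match in *Corin*.

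The values are FPKM, fragments scaled by transcript length and by the library's total, so levels can be set side by side between genes. The steps between low values gave 25.5 to 45 times 1e6 fragments per heart. Between 82.9% and 87.0% of the low values used came out as whole fragments, against 11.5% to 18.1% by chance. The columns were not on 1 scale for every purpose: the median log2 change of the 13618 genes tested, those with a mean of at least 1 FPKM, was -0.06 from E18.5d to P1d, -0.09 from P1d to P7d and -0.17 from E18.5d to P7d as deposited, and -0.21, 0.02 and -0.21 with the columns brought to equal sums. At an adjusted p under 0.05, 2505 genes were higher and 3755 lower at P1d than at E18.5d, 2112 higher and 3901 lower at P7d than at P1d, and, with P7d set against E18.5d, 1706 higher and 5025 lower. Scaled by the median of ratios, these splits became 3154 and 3112, 2986 and 2700, and 2905 and 2848. Although every heart is labelled male, 4 of the 9 (E18.5d replicates 1 and 3, P7d replicates 2 and 3) held *Xist* at 58.0 to 97.0 FPKM and 4 Y-linked genes at 0, whereas the other 5, all P1d hearts among them, held *Xist* at no more than 0.11 FPKM. The secretoglobin genes *Scgb3a1* and *Scgb3a2*, which mark airway, reached 270 and 179 FPKM in P1d replicate 1 and were 34.9 to 127 FPKM in E18.5d replicates 1 and 2. In the other hearts they were at 0 to 2.97 FPKM. *Alb* and *Apoa1*, which mark liver, were highest in P1d replicate 2 at 15.9 and 10.3 FPKM. The 5 genes listed for brown fat summed to 6.13 to 7.77 FPKM at E18.5d, 25.9 to 26.3 FPKM at P1d and 33.6 to 38.9 FPKM at P7d. All 3 of them that were tested were higher at P7d than at E18.5d. The part of these genes and traces in the results below was not tested.

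*Nppa* was among the most abundant transcripts of the heart at every stage and its mean fell by 58.7% between P1d and P7d. It stood at 2204, 2146 and 1958 FPKM in the E18.5d hearts, 2870, 2485 and 2260 FPKM in the P1d hearts, and at 1032, 1033 and 1076 FPKM in the P7d hearts. The 3 stages did not overlap, P1d being highest and P7d lowest, and the P7d hearts lay closest together. By mean it ranked 38 of the 13618 genes tested at E18.5d, and its rank was 34 at P1d and 68 at P7d. From P1d to P7d the mean fell to 0.413 times its value, a log2 change of -1.27 ± 0.09 (SE, n = 3 hearts a stage, limma adjusted p = 1.74e-05). P7d was also below E18.5d, at 0.498 times (log2 change -1.003 ± 0.09, limma adjusted p = 3.18e-05). In whole hearts, fewer cells that make a transcript and less of it per cell cannot be told apart.

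The rise of *Nppa* at birth was small and its call did not hold under many alternatives. P1d was 1.21 times E18.5d, a log2 change of 0.27 ± 0.09 (limma adjusted p = 0.0378). With the columns brought to equal sums the change was 0.09 (adjusted p = 0.579), and it also missed the threshold in 8 of the 9 fits that left out 1 heart, in which it ranged from 0.17 to 0.35. A gene annotated antisense to *Nppa*, *Gm13054*, was at 1.49 to 5.68 FPKM. The library kit does not mark strand, so reads of such a pair cannot be told apart where they overlap. Antisense genes over *Npr2* (*Gm12473*, 0.27 to 1.25 FPKM) and *Corin* (*Gm20647*, 0.04 to 0.88 FPKM) were low as well, one over *Npr1* (*Gm16048*) was listed at 0, and *Gm5144*, which overlaps *Npr3*, was not analysed here.

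*Nppb* was the second most abundant member, and its hearts differed widely within P1d and within P7d. Its values were 269.9, 215.9 and 278.1 FPKM at E18.5d, 376.3, 440.1 and 183.4 FPKM at P1d, and 106.0, 165.2 and 233.8 FPKM at P7d. Every pair of stages overlapped: P1d replicate 3 was below all 3 E18.5d hearts, and P7d replicate 3 was above P1d replicate 3. The P7d mean was 0.505 times the P1d mean, and this change passed the threshold only narrowly (log2 -0.96 ± 0.34, limma adjusted p = 0.0454). It missed it in 15 of 20 alternatives, counted without the fit that drops all 4 hearts with *Xist* at once, with adjusted p from 0.00535 to 0.150 over the 20. P1d against E18.5d (0.30 ± 0.34, limma adjusted p = 0.497) and P7d against E18.5d (-0.66 ± 0.34, limma adjusted p = 0.136) did not pass.

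*Nppc* was close to the limit of these libraries. It was at 0.11, 0.11 and 0.17 FPKM at E18.5d, 0.15, 0.25 and 0.19 FPKM at P1d, and 0.34, 0.13 and 0.18 FPKM at P7d, with all stages overlapping. By the estimated depth these values correspond to 2 to 9 fragments a heart, and 3 fragments on this gene equal 0.0913 to 0.159 FPKM. With a mean under 1 FPKM it was not among the genes tested. In a limma fit without that filter its log2 changes of 0.08, 0.02 and 0.10 had adjusted p of 0.428, 0.888 and 0.318, and a difference between stages was not detectable at this depth.

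**Figure D1:**
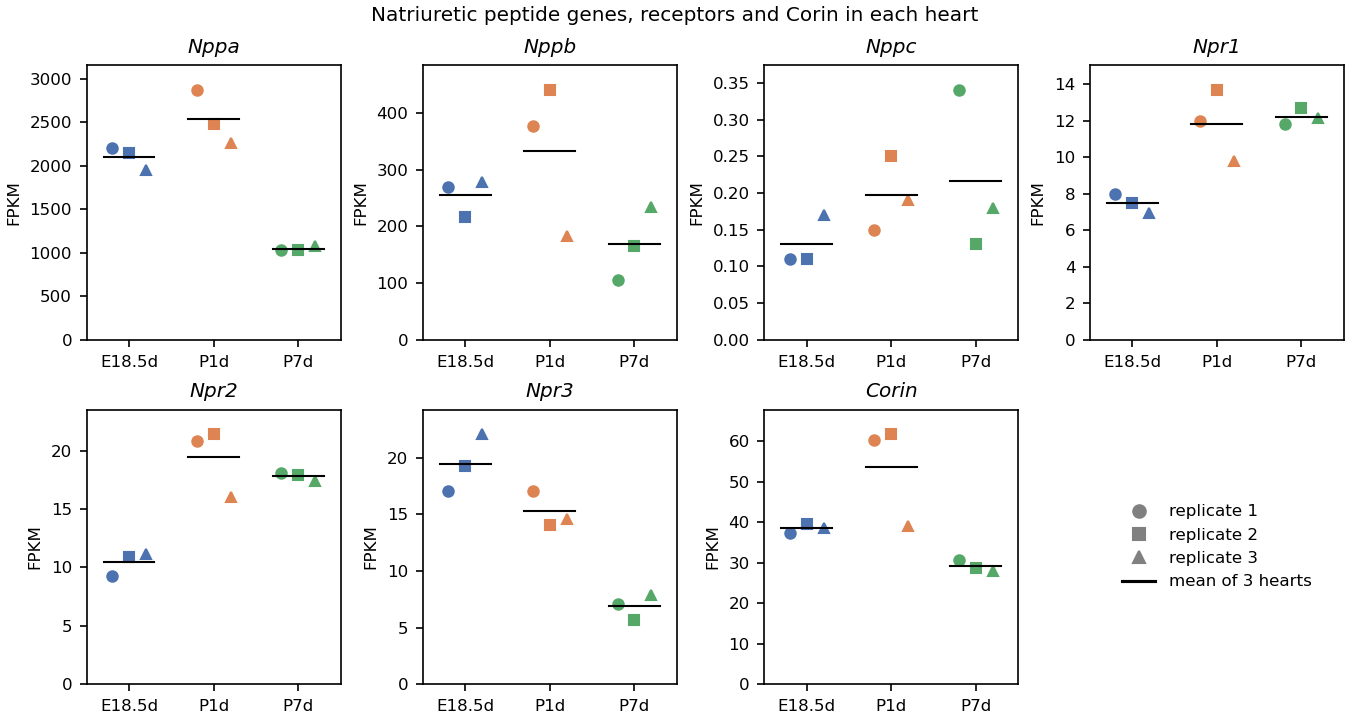
FPKM of the 7 members in each of the 9 hearts, 1 panel a gene with its own axis from 0. Points are hearts, symbols are replicate numbers and bars are means of 3 hearts; *Nppa* drops from between 2260 and 2870 FPKM at P1d to between 1032 and 1076 FPKM at P7d, while *Npr1* and *Npr2* step up between E18.5d and P1d.

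*Corin* encodes the protease that cuts the ANP precursor. Its values were 37.4, 39.6 and 38.6 FPKM at E18.5d, 60.3, 61.7 and 39.2 FPKM at P1d, and 30.6, 28.7 and 28.0 FPKM at P7d. At P1d 2 hearts were well above E18.5d and replicate 3 lay within it, and all P7d hearts were below all others. *Corin* fell from P1d to P7d to 0.541 times (log2 -0.84 ± 0.15, limma adjusted p = 0.00164), and this call held in 20 of the same 20 alternatives. The higher level at P1d than at E18.5d (0.44 ± 0.15, limma adjusted p = 0.0325) missed the threshold when either of the 2 high hearts was left out, at 0.35 and 0.33, and when any E18.5d heart was, at 0.42 to 0.46, so in 5 of the 9 fits without 1 heart. P7d against E18.5d passed as deposited (-0.39 ± 0.15, limma adjusted p = 0.0477) and not with the median of ratios (-0.22, adjusted p = 0.248).

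The genes of the 2 cyclase receptors rose together at birth and stayed up. *Npr1* was at 7.99, 7.49 and 6.96 FPKM at E18.5d, 12.0, 13.7 and 9.77 FPKM at P1d, and 11.8, 12.7 and 12.1 FPKM at P7d. *Npr2* was at 9.27, 10.9 and 11.2 FPKM at E18.5d, 20.9, 21.4 and 16.1 FPKM at P1d, and 18.1, 17.9 and 17.5 FPKM at P7d. For both genes each postnatal heart was above each E18.5d heart, and P1d and P7d overlapped, with P1d replicate 3 the lowest of its stage.

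From E18.5d to P1d the mean of *Npr1* rose 1.58 times (log2 0.59 ± 0.11, limma adjusted p = 0.00182) and that of *Npr2* 1.86 times (0.83 ± 0.11, limma adjusted p = 0.000289). At P7d they stood 1.63 times (0.64 ± 0.11, limma adjusted p = 0.000996) and 1.70 times (0.72 ± 0.11, limma adjusted p = 0.000583) above E18.5d. These 4 calls held in 20 of the same 20 alternatives. Between P1d and P7d the changes of 0.06 ± 0.11 for *Npr1* (limma adjusted p = 0.701) and -0.11 ± 0.11 for *Npr2* (limma adjusted p = 0.448) did not pass, and that of *Npr2* changed sign with the columns at equal sums (0.02). Without P1d replicate 3 the change of *Npr2* was -0.23 (adjusted p = 0.0482) and that of *Npr1* was -0.06.

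*Npr3*, the gene of the clearance receptor, fell after birth. It was at 17.0, 19.3 and 22.1 FPKM at E18.5d, 17.1, 14.1 and 14.6 FPKM at P1d, and 7.09, 5.67 and 7.89 FPKM at P7d. E18.5d and P1d overlapped by 1 heart of each, at 17.0 and 17.1 FPKM, and the P7d hearts lay below both. The fall from P1d to P7d was to 0.451 times (log2 -1.05 ± 0.13, limma adjusted p = 0.000231) and that from E18.5d to P7d to 0.354 times (-1.38 ± 0.13, limma adjusted p = 3.42e-05), the largest change of any member in the 3 comparisons. P1d against E18.5d was -0.33 ± 0.13 (limma adjusted p = 0.0594). It passed with the columns at equal sums (-0.49, adjusted p = 0.0462) and without E18.5d replicate 1 (-0.42, adjusted p = 0.0397), P1d replicate 1 (-0.41, adjusted p = 0.0438) or P7d replicate 2 (-0.33, adjusted p = 0.0389).

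Counted by comparison, 6 of the 7 members were tested, and each of these was above 5 FPKM in every heart. At P1d against E18.5d, *Nppa*, *Npr1*, *Npr2* and *Corin* were higher, 4 of 6, and the other 2 did not pass. Of all genes tested, 18.4% were higher and 27.6% lower in that comparison. At P7d against P1d, *Nppa*, *Nppb*, *Npr3* and *Corin* were lower, 4 of 6, beside 28.6% lower and 15.5% higher among all genes. At P7d against E18.5d, 2 members were higher and 3 lower, beside 12.5% and 36.9% of all genes. The median change of the 6 was 0.37, -0.90 and -0.53 in the 3 comparisons. The comparisons share hearts, so they are not independent of each other, and genes are not replicates.

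The median change of all genes was also subtracted, which removes a shift between columns only if the typical gene did not change. On that footing *Nppa* changed by 0.32, -1.18 and -0.83 (P1d against E18.5d, P7d against P1d, P7d against E18.5d) and *Npr3* by -0.27, -0.96 and -1.21. *Npr1* changed by 0.64, 0.15 and 0.81 and *Npr2* by 0.89, -0.01 and 0.89 on the same footing. *Corin* changed by 0.50, -0.74 and -0.22 and *Nppb* by 0.36, -0.87 and -0.48.

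Without the 4 hearts that held *Xist*, 1 E18.5d, 3 P1d and 1 P7d hearts remained, and the single hearts had to be assumed to vary like the P1d hearts. No member passed the threshold in that limma fit (2 higher at P1d, 4 lower from P1d to P7d, and 1 higher and 2 lower from E18.5d to P7d at an unadjusted p under 0.05), in which 239 genes were higher and 584 lower at P1d than at E18.5d, 75 and 104 at P7d than at P1d, and 93 and 101 at P7d than at E18.5d. Each change called above kept its direction. *Nppa* was at 0.23, -1.29 and -1.06 in the order used above, *Npr3* at -1.003 from P1d and -1.33 from E18.5d at P7d, and *Corin* at 0.40, -0.76 and -0.36. *Npr1* was at 0.58 at P1d and 0.60 at P7d against E18.5d, *Npr2* at 0.77 and 0.68, and *Nppb* at -1.55 from P1d to P7d. With a term for *Xist* in the fit of all 9 hearts, *Nppa* and *Corin* at P1d against E18.5d and *Corin* at P7d against E18.5d missed the threshold (0.26, 0.39 and -0.39).

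**Figure D2:**
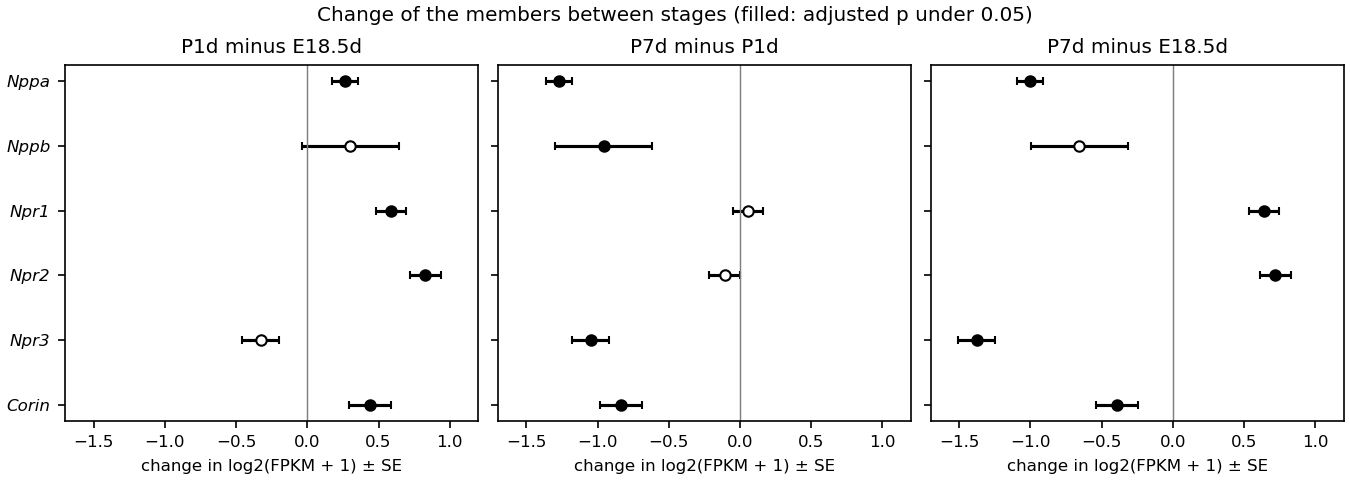
Change in log2(FPKM + 1) of the 6 members tested between each pair of stages. Points are limma estimates with standard errors, filled where the adjusted p was under 0.05; *Npr1* and *Npr2* lie right of 0 in both comparisons with E18.5d, and *Nppa*, *Npr3* and *Corin* lie left of 0 in both comparisons at P7d.

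Levels per length gave the same order for the upper 3 members at each stage, *Nppa* above *Nppb* above *Corin*, with no overlap between neighbours. The receptors changed places. At E18.5d *Npr3* was the most abundant receptor transcript, at 19.5 ± 2.5 FPKM (SD, n = 3), above *Npr2* at 10.5 ± 1.0 and *Npr1* at 7.48 ± 0.52, and the 3 ranges did not overlap. At P1d *Npr2* stood at 19.4 ± 2.9 and overlapped *Npr3* at 15.3 ± 1.6, with *Npr1* at 11.8 ± 2.0 below both. At P7d the order was *Npr2* at 17.8 ± 0.3, *Npr1* at 12.2 ± 0.4 and *Npr3* at 6.88 ± 1.12, again without overlap.

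Set against each other within a heart, which does not depend on the scale of the column, *Npr3* went from above *Npr1* to below it. The ratio of *Npr3* to *Npr1*, each with 0.1 FPKM added, was 2.12, 2.55 and 3.14 in the E18.5d hearts, 1.42, 1.03 and 1.49 in the P1d hearts, and 0.603, 0.451 and 0.654 in the P7d hearts. No 2 stages overlapped. The P7d ratio was 0.219 times that at E18.5d (exact permutation test, two-sided, p = 0.1), with steps of 0.505 times to P1d and 0.434 times from P1d to P7d. With 3 hearts against 3 this test cannot go below 0.1, and the smallest p adjusted over the 27 ratio tests was 0.169.

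The other 3 ratios between members changed by smaller folds. *Npr2* to *Npr1* was 1.16 to 1.60 at E18.5d, 1.56 to 1.73 at P1d and 1.41 to 1.53 at P7d, overlapping between E18.5d and the other stages. *Nppb* to *Nppa* was between 0.0812 and 0.217 over the 9 hearts with every stage overlapping. *Corin* to *Nppa* was higher at P7d, at 0.0261 to 0.0298, than at P1d, at 0.0174 to 0.0249, 1.33 times (exact permutation p = 0.1), and than at E18.5d, 1.52 times (exact permutation p = 0.1).

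**Figure D3:**
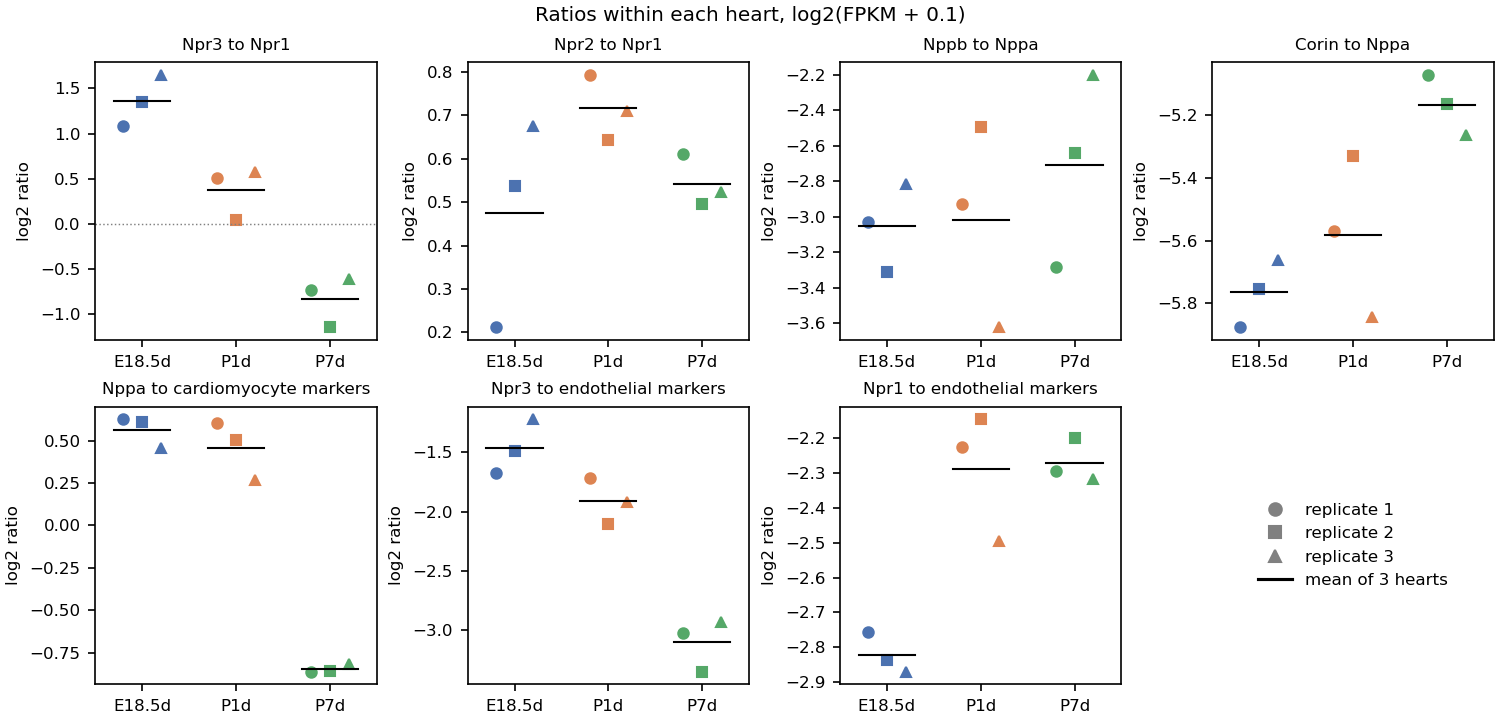
Ratios within each heart on the log2 scale, with 0.1 FPKM added to each value; cardiomyocyte and endothelial markers stand for the mean log2 level of 8 genes each, and the dotted line marks equal levels. Points are hearts and bars are means of 3; *Npr3* to *Npr1* descends without overlap from 1.08 to 1.65 at E18.5d to -1.15 to -0.61 at P7d.

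Marker lists were set beside these results to see which cell types moved with them. General cardiomyocyte markers were abundant in every heart, summing to 19658 to 25459 FPKM over 8 genes. Of the 8, 5 rose and 1 fell from E18.5d to P7d, and 5 were higher and 0 lower at P1d than at E18.5d. They include *Myh6*, *Tnni3* and *Pln*, genes of adult heart muscle, so their mean does not measure the number of cardiomyocytes alone. Against the mean of these 8 genes *Nppa* was 0.377 times at P7d of its E18.5d level and 0.406 times of its P1d level, without overlap (exact permutation p = 0.1 for each). *Corin* against the same mean was 0.571 and 0.541 times. At P1d against E18.5d the stages overlapped on this footing, at 0.929 times for *Nppa* (exact permutation p = 0.5) and 1.06 times for *Corin* (exact permutation p = 0.9). The atrial list summed to 5320 to 6266 FPKM at E18.5d and to 2744 to 2980 FPKM at P7d, and 7 of its 11 genes fell between these stages while the other 4 did not pass. They included the sarcolipin gene *Sln* (-0.92, limma adjusted p = 3.57e-05) and the atrial light chain genes *Myl7* (-0.96, limma adjusted p = 0.000151) and *Myl4* (-1.22, limma adjusted p = 1.06e-05). Of 7 ventricular genes 2 were higher and 2 lower, with *Myl2*, the ventricular light chain gene, at 0.13 (limma adjusted p = 0.305). Of 8 trabecular and conduction genes 3 were higher and 5 lower (median -0.69), and the list summed to 109 to 124 FPKM at E18.5d and 77.0 to 80.6 FPKM at P7d. The part of the atrial and trabecular shares of the tissue in the fall of *Nppa* was not tested.

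Endothelial markers summed to 447 to 480 FPKM at E18.5d and to 544 to 566 FPKM at P7d, with 5 of 8 higher and 2 lower. Against their mean, *Npr1* was 1.45 times at P1d and 1.47 times at P7d its E18.5d level, and *Npr3* was 0.321 times at P7d (exact permutation p = 0.1 for each, no overlap). The part of the amount of endothelium in the changes of *Npr1* and *Npr3* was not tested. Of 8 genes listed for endocardium, the inner lining in which *Npr3* is known to be expressed in the embryo, 6 had fallen by P7d from E18.5d and the other 2 did not pass. The list summed to 158 to 166 FPKM at E18.5d and to 97.8 to 108 FPKM at P7d, and *Plvap* fell by 1.57 on the log2 scale (limma adjusted p = 7.1e-07). Of 6 epicardial genes 4 were lower and 1 higher at P7d against E18.5d (median -0.86; the list summed to 65.6 to 77.0 FPKM and then 55.9 to 63.2 FPKM). Whether the amount of endocardium or epicardium moved *Npr3* was not tested.

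Of 6 macrophage genes 4 were higher at P1d against E18.5d and the other 2 did not pass (median 0.54), and the list summed to 50.4 to 64.5 FPKM at E18.5d and 69.2 to 101 FPKM at P1d. Of 8 smooth muscle and pericyte genes 3 were higher and 2 lower in that comparison (median 0.15), and at P7d against E18.5d 4 and 2 (median 0.32). Of 8 fibroblast genes 3 were lower at P1d (median -0.11), and 2 were higher at P7d (median 0.12), each against E18.5d, and the rest did not pass. The part of these cell types in the rise of *Npr1* and *Npr2* was not tested.

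Genes that make, cut or degrade the peptides changed in both directions. Of 12 listed, 10 were tested. At P1d against E18.5d 3 were higher and 1 lower, at P7d against P1d 2 were higher and 5 lower, and at P7d against E18.5d 2 were higher and 4 lower, with medians of 0.12, -0.33 and -0.06. Those of all genes were -0.06, -0.09 and -0.17. With the median of ratios 4, 2 and 4 were higher, the last comparison had 3 lower, and its median turned to 0.083. With equal sums the first median was -0.003. As deposited, 18.4%, 15.5% and 12.5% of all genes tested were higher and 27.6%, 28.6% and 36.9% lower in the 3 comparisons.

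*Pcsk6* encodes the convertase PACE4, which activates corin. It was at 7.28 to 11.1 FPKM in all E18.5d and P1d hearts and at 31.0, 32.2 and 32.6 FPKM at P7d, and rose by 1.83 ± 0.14 from P1d (limma adjusted p = 2.3e-05) as *Corin* fell. *Furin*, the gene of a convertase of the BNP precursor, was highest at P1d, at 31.6 to 36.8 FPKM, with a rise of 0.43 (limma adjusted p = 0.00128) and a fall of 0.41 on the log2 scale from P1d to P7d (limma adjusted p = 0.00203). *Pam*, which encodes the amidating enzyme that is also a main membrane protein of atrial secretory granules, was at 577 to 606 FPKM at E18.5d, 720 to 783 FPKM at P1d and 306 to 318 FPKM at P7d. It fell by 1.27 on the log2 scale from P1d to P7d (limma adjusted p = 2.36e-06). Among the degrading enzymes, *Mme* (neprilysin) at 1.14 to 2.06 FPKM and *Ide* (insulin-degrading enzyme) at 48.8 to 94.2 FPKM did not pass in any comparison. *Dpp4*, which trims BNP, was below its E18.5d level at P7d (-0.67, limma adjusted p = 0.00352), and *Fap*, a related protease, was higher (0.79, limma adjusted p = 0.000211). *Ostn*, which encodes the NPR-C ligand osteocrin, was listed at 0 in every heart.

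Downstream of the receptors, 22 of 25 genes of cGMP synthesis, action and breakdown were tested. At P1d against E18.5d 5 were higher and 5 lower, at P7d against P1d 4 and 5, and at P7d against E18.5d 7 and 5, with medians of -0.06, 0.03 and 0.13. The median of ratios gave 6 and 3, 7 and 1, and 9 and 3. Among all genes tested the shares as deposited were 18.4% and 27.6%, 15.5% and 28.6%, and 12.5% and 36.9%. *Pde2a*, which encodes a phosphodiesterase that cGMP itself stimulates, was at 11.2 to 12.6 FPKM at E18.5d, 19.5 to 26.9 FPKM at P1d and 24.1 to 24.3 FPKM at P7d. It rose at birth by 0.94 ± 0.10 (limma adjusted p = 0.000115). *Rgs2*, an inhibitor of Gq signalling that the cGMP-dependent kinase activates, rose by 0.83 ± 0.09 (limma adjusted p = 0.000117). *Prkg1*, the gene of that kinase, fell from E18.5d to P7d (-0.34 ± 0.09, limma adjusted p = 0.00982), with adjusted p of up to 0.172 over the same 20 alternatives.

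The soluble, nitric oxide-driven cyclase is the other source of cGMP. Its subunit gene *Gucy1b1* fell by 0.44 on the log2 scale at birth (limma adjusted p = 0.00069), *Gucy1a1* did not pass in any comparison, and *Gucy1a2* was higher at P7d than at P1d (0.49, limma adjusted p = 0.00325) and at E18.5d (0.29, limma adjusted p = 0.0299, which missed the threshold in 5 of the 9 fits without 1 heart). Of the phosphodiesterases tied to one source or the other, *Pde5a* did not pass in any comparison and *Pde9a* was higher at P1d than at E18.5d (0.53 ± 0.14, limma adjusted p = 0.0125). *Pde3a* rose by 0.41 and *Pde3b* fell by 0.53 on the log2 scale from E18.5d to P7d (limma adjusted p = 0.000929 and 0.00182). Both encode enzymes that break down cAMP and are inhibited by cGMP.

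**Figure D4:**
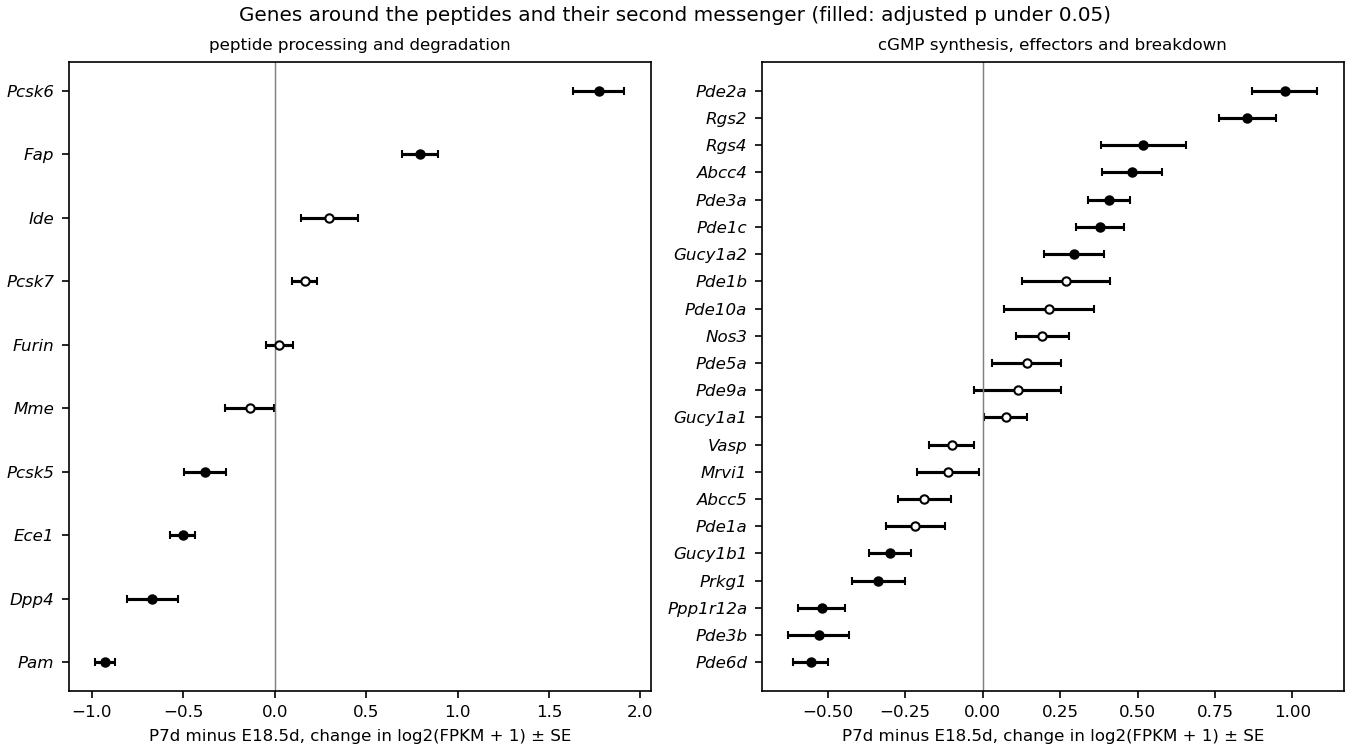
Change in log2(FPKM + 1) from E18.5d to P7d of the genes tested around peptide processing (left, 10 genes) and cGMP (right, 22 genes). Points are limma estimates with standard errors, filled where the adjusted p was under 0.05; *Pcsk6* at 1.77 and *Pde2a* at 0.98 lie farthest right and *Pam* at -0.93 farthest left of its list.

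Of 26 factors known to act on the *Nppa* and *Nppb* promoters, 25 were tested: 8 were higher and 3 lower at P1d than at E18.5d, 1 higher and 10 lower at P7d than at P1d, and 3 higher and 7 lower over the whole span to P7d. Their medians were 0.12, -0.13 and -0.12, and with the median of ratios the last count was 5 and 5 and the last median 0.044. With equal sums the first median was -0.055. Of all genes tested, as deposited, 18.4%, 15.5% and 12.5% were higher and 27.6%, 28.6% and 36.9% lower in these comparisons. *Gata4* was steady at 76.4 to 85.8 FPKM and did not pass in any comparison. *Gata6*, like *Nppa*, was highest at P1d and lowest at P7d, at 39.3 to 40.7, 55.6 to 59.6 and 27.2 to 29.7 FPKM, with changes of 0.52, -1.001 and -0.48 (limma adjusted p = 8.9e-05, 6.27e-06 and 0.00013). *Tbx5*, an activator in the atria and the trabeculae, rose by 0.44 and then fell by 0.64 on the log2 scale (limma adjusted p = 0.00174 and 0.000261). *Hey2*, a transcriptional repressor expressed in the compact ventricular wall, declined throughout, from 26.7 to 31.4 FPKM at E18.5d to 5.41 to 6.92 FPKM at P7d (-2.05 ± 0.09, limma adjusted p = 5.3e-07). *Nkx2-5* fell from E18.5d to P7d (-0.46 ± 0.09, limma adjusted p = 0.00273).

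Genes listed for the foetal and stretch programme of the cardiomyocyte changed in both directions. The list also held *Myh6*, *Tnni3*, *Atp2a2* and *Pln*, which are genes of adult heart muscle, so its counts and medians do not describe foetal genes alone. Of 16 tested, 6 were higher and 2 lower at P1d than at E18.5d, 4 and 7 at P7d than at P1d, and 5 and 6 at P7d than at E18.5d, with medians of 0.05, -0.23 and -0.12. With the median of ratios the last count was 6 and 3 and the last median 0.064, and with equal sums the first median was -0.12. The shares of all genes tested, higher and lower as deposited, were 18.4% and 27.6%, 15.5% and 28.6%, and 12.5% and 36.9%. The change of *Nppa* from E18.5d to P7d, -1.003, was close to that of *Tnni1*, the slow skeletal troponin I gene of the foetal heart (-1.06, limma adjusted p = 1.11e-05), and smaller in size than that of the foetal myosin gene *Myh7* (-5.27, limma adjusted p = 1.35e-06). *Ccn2*, a matrix gene induced by stretch, rose by 1.80 at P1d and fell by 1.85 on the log2 scale to P7d (limma adjusted p = 0.000323 and 0.000344).

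The genes whose 9 values lay closest to each member were found by the root mean square (RMS) difference of log2(FPKM + 1), each gene centred on its own mean, among 13617 others. Closest to *Nppa* were *Clca3a1* (0.085), *Pam* (0.099) and *Gpx3* (0.102), beside a spread of 0.555 of *Nppa* around its own mean. *Pam* is thus named both by its role and by its profile. *Nppb* had no gene so near: *Gm4294* was at 0.177, *Fcna* at 0.199 and *Baiap2* at 0.270, and its neighbour *Nppa* was at 0.417, rank 258. *Npr1* was closest to *Il4ra* (0.067), *Jup* (0.070) and *Csf1r* (0.074), and *Npr2* to *Scn7a* (0.067), *Ablim1* (0.070) and *Kank3* (0.078), while *Npr1* and *Npr2* were 0.150 apart. *Npr3* was closest to *Igf2bp3* (0.137), *Slc1a1* (0.141) and *Acer2* (0.143), and *Corin* to *Amotl1* (0.064), *Mxi1* (0.087) and *Ccng2* (0.099). The hearts are the same for all genes, so what sets a heart apart is shared by them.

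**Figure D5:**
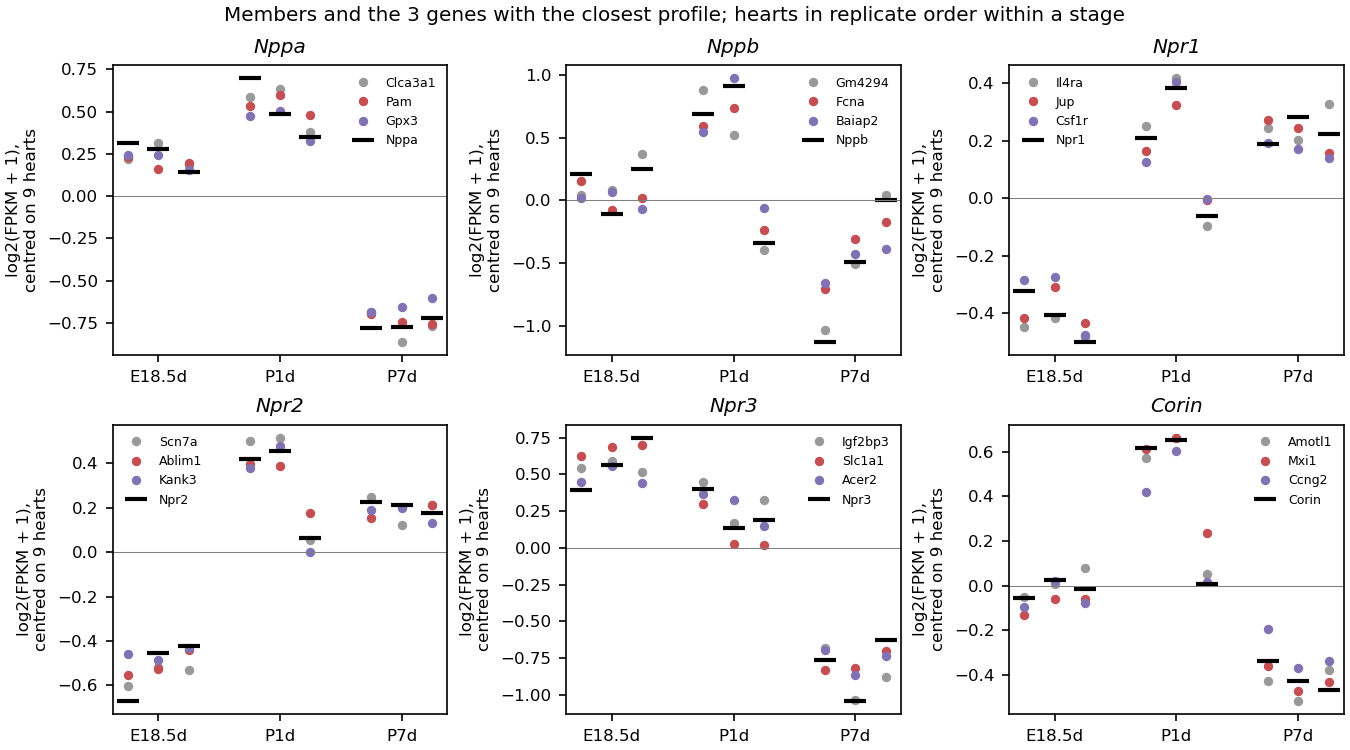
Log2(FPKM + 1) of the 6 members tested (bars) and of the 3 genes closest to each (points) in the 9 hearts, every gene centred on its mean. Hearts stand in replicate order within a stage; the RMS distance of the closest gene was 0.085 for *Nppa* and 0.177 for *Nppb*.

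The genes around *Nppa* and *Nppb* changed in both directions. Among the protein-coding genes within 100 kilobases of either, from E18.5d to P7d *Mfn2* (0.57, limma adjusted p = 0.000111), *Plod1* (0.49, limma adjusted p = 6.47e-05) and *Agtrap* (0.23, limma adjusted p = 0.0398) rose and *Clcn6*, on the opposite strand downstream of *Nppa*, fell by 0.39 on the log2 scale (limma adjusted p = 0.00198). *2510039O18Rik* did not pass, and *Draxin* was at no more than 0.03 FPKM.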

How the data were processed

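Hearts of C57BL/6J mice (3 per stage) were profiled by RNA-seq of total RNA with a library kit that does not mark strand. The authors deposited FPKM, fragments scaled by transcript length and library total, for 48820 genes in 1 column per heart. Per the labels STAR and GRCm38 (mm10) were used. Versions, the counting tool and the annotation were not given in the sources used here. Identifiers were matched to GENCODE M21 of GRCm38 (48144 matched, 40692 in the same version). *Npr3* matched without its version, and *Irag1* is listed as *Mrvi1*.

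Genes whose mean reached 1 FPKM (13618) were fitted as log2(FPKM + 1) in limma 3.58.1 (R 4.3.3; lmFit, contrasts.fit, eBayes with trend), all 9 hearts in 1 fit, p adjusted by Benjamini-Hochberg over these genes, threshold 0.05. Fold changes on this scale understate the change of low genes. Ratios used log2(FPKM + 0.1) and exact two-sided permutation tests (scipy 1.17.1). p-values measure the spread between these 3 hearts a stage. In simulated data of 13618 genes with 200 changed at P7d, 195 were called against P1d or E18.5d, with 12 unchanged genes. Depth was estimated from steps in low FPKM, and limits from it cover counting error only. FPKM are not counts, and no count test was run.

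Named were the 7 members, list genes with the 4 largest changes per comparison or a role beside a member, genes within 100 kilobases of *Nppa* or *Nppb* (not all are reported here), the 3 closest profiles per member, and markers. Members and lists were chosen with earlier results of these data known. Alternatives changed pseudocount, filter, scaling, moderation, stages, replicate block, *Xist* term and hearts. The authors' knockout, proteome and metabolome data were not analysed here.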

Additional observations from a re-analysis of the deposited data

How the results depend on the processing

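Each change was refitted under 21 alternatives. The rises of *Npr1* and *Npr2* over E18.5d, the falls of *Nppa*, *Npr3* and *Corin* from P1d to P7d, and the falls of *Nppa* and *Npr3* from E18.5d to P7d kept their direction in all 21 and their side of the threshold in all but 1. That one left out the 4 hearts with *Xist*. The log2 differences of the ratios stayed near where they were with a pseudocount of 1, and the permutation tests were not rerun. Their p of 0.1 is the smallest this design allows and says nothing about stability.

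Without the 4 hearts with *Xist* the log2 changes were, at P1d against E18.5d, 0.23 for *Nppa*, 0.58 for *Npr1*, 0.77 for *Npr2* and 0.40 for *Corin*. At P7d against P1d they were -1.29 for *Nppa*, -1.55 for *Nppb*, -1.003 for *Npr3* and -0.76 for *Corin*, and at P7d against E18.5d -1.06 for *Nppa*, 0.60 for *Npr1*, 0.68 for *Npr2*, -1.33 for *Npr3* and -0.36 for *Corin*. The members called numbered 0 in either direction in all 3 comparisons, and all genes called fell to 239 higher and 584 lower, 75 and 104, and 93 and 101. This fit has 1 heart in 2 of the stages. At an unadjusted p under 0.05 the limma fit held 2 members higher at P1d than at E18.5d, 4 lower at P7d than at P1d, and 1 higher and 2 lower for P7d against E18.5d.

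*Nppa* at P1d against E18.5d (0.27) missed the threshold with no filter (0.27), columns at equal sums (0.092), quantile normalization (0.22), a term for *Xist* (0.26) and only the 2 stages in the fit (0.27), and ranged from 0.17 to 0.35 without 1 heart. *Corin* in that comparison (0.44) missed it with no filter (0.44), equal sums (0.27), the *Xist* term (0.39) and 2 stages (0.44), and ranged from 0.33 to 0.65 without 1 heart. *Npr3* (-0.33) passed with equal sums (-0.49), and ranged from -0.42 to -0.24 without 1 heart. The members called higher were 2 in place of 4 with no filter, equal sums, the *Xist* term and 2 stages, and 2 to 4 without 1 heart. Those called lower were 1 in place of 0 with equal sums, and 0 to 1 without 1 heart, and 1 member was lower at an unadjusted p under 0.05 in the limma fit of all hearts.

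*Nppb* at P7d against P1d (-0.96) missed the threshold with no filter, with eBayes without trend, with the replicate block and with 2 stages (-0.96 in each), equal sums (-0.83), equal sums of protein-coding nuclear genes (-0.81), median of ratios (-0.85) and quantile normalization (-0.87), and ranged from -1.34 to -0.66 without 1 heart. *Npr2* in that comparison (-0.11) turned to 0.016 with equal sums and 0.038 with protein-coding sums, and ranged from -0.23 to -0.036 without 1 heart. *Npr1* (0.06) ranged from -0.064 to 0.16, the lowest without P1d replicate 3. *Corin* at P7d against E18.5d (-0.39) missed the threshold with no filter, eBayes without trend and the *Xist* term (-0.39 in each), protein-coding sums (-0.23), median of ratios (-0.22) and quantile normalization (-0.25), and ranged from -0.43 to -0.37 without 1 heart. The causes were not tested.

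Over all genes, P1d against E18.5d gave 1175 higher with equal sums and 1607 with the *Xist* term, in place of 2505. P7d against P1d gave 3293 higher with protein-coding sums in place of 2112, and 1729, 2234 and 2438 lower with equal sums, protein-coding sums and the *Xist* term in place of 3901. P7d against E18.5d gave 2752, 2905 and 2894 higher and 2872, 2848 and 2919 lower with protein-coding sums, median of ratios and quantile normalization, in place of 1706 and 5025.

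The replicate numbers gave no sign of pairing the hearts. Deviations of same-numbered hearts of different stages correlated at -0.055 to 0.112, and those of other pairs at -0.182 to 0.129. With the replicate block *Nppb* at P7d against P1d had an adjusted p of 0.0761 and no other member's call changed. The block gave 2040 genes higher and 3817 lower there.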

Other observations

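The 3 P7d hearts, which lay close together for *Nppa*, ranged from 106.0 to 233.8 FPKM in *Nppb*. These values were picked after they were seen. Genes in the same order over these hearts as *Nppb* (106.0, 165.2 and 233.8 FPKM in replicates 1 to 3) included 3 picked after their values were seen. These were *Ankrd1* at 307, 354 and 537 FPKM and skeletal actin *Acta1* at 38.6, 51.5 and 75.0 FPKM, with the atrial ligand gene *Bmp10*. *Bmp10* was at 30.2, 34.3 and 46.9 FPKM. They come from the lists of 16 foetal and stretch genes and of 11 atrial genes, and how many others of these lists had this order was not counted. *Nppa* (1032, 1033 and 1076 FPKM) and *Gpx3* stood in the order of *Nppb* too. So did *Gm4294*, *Fcna* and *Baiap2*, which were found by their closeness to *Nppb*, so their order adds nothing. The share of all genes in this order was not counted. *Corin* ran the opposite way over these hearts (30.6, 28.7 and 28.0 FPKM). Of the P1d hearts replicate 3 was lowest in *Ankrd1* (538, 516 and 334 FPKM) and in *Acta1* (38.5, 33.9 and 30.9 FPKM), as it was in *Nppb*, and in *Bmp10* it lay between the others (39.2, 31.6 and 32.4 FPKM). The P7d order holds for 3 hearts of 1 stage and was not tested.

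P1d replicate 3 was also the lowest of its stage in *Nppa*, *Npr1*, *Npr2* and *Corin*, and not in *Npr3*. The share of all genes in which P1d replicate 3 was lowest was not counted, so this is not a trait of the members. The distance of P1d replicate 3 from the other 2 hearts of its stage over all genes, a mean absolute log2 difference of 0.198, was below that of P1d replicate 2 (0.209) and above that of P1d replicate 1 (0.169).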
